A study of Homo sapiens with 6 samples.

Results

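The interferon response genes are 44 genes known to be induced by interferon or to control its response, chosen by name from the literature of the pathway and all found among the 23619 gene symbols measured. They were followed in HG3, a lymphoblastoid cell line derived from chronic lymphocytic leukaemia, in a study of that disease which sought mechanisms of resistance to fludarabine by transposon mutagenesis, in which a mobile element inserts into genes at random. Fludarabine is a purine nucleoside analogue used against this leukaemia. There were 3 control pools of cells, the parental cells, and 3 pools that had become resistant to fludarabine. They were numbered 17, 18 and 28 in both groups, with 1 RNA-seq library each. The sample titles call the resistant pools treated. All 6 pools come from the same cell line, and the dose, the length of selection and the time of harvest were not given in the sources used here. Resistant and parental cells were compared to see how far their transcriptomes differ.

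Interferons are secreted proteins that bind receptors on the cell surface and activate kinases such as JAK1 and TYK2, which phosphorylate transcription factors of the STAT family. Type I interferon makes STAT2 join IRF9 in a complex that enters the nucleus and binds the interferon-stimulated response element in the promoters of target genes, while interferon gamma acts mostly through another element, the gamma-activated site. The induced genes encode sensors of foreign RNA, enzymes that block its translation, proteins that trap viruses, and factors such as IRF7 that amplify the response. In B cells transformed by Epstein-Barr virus, as lymphoblastoid lines are, IRF7 is known to be induced by a viral protein, and some interferon-induced genes are active without added interferon.

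Letters of the response element were in the promoters of many members. RefSeq (GRCh38.p14) gave promoters, 250 bases before to 50 after the start of the gene, for 35 of the 44 members, all but OAS2, OASL, IRF7, IFIT2, MX2, IFITM2, TRIM22, USP18 and GBP2. The letters TTTCNNTTTC, sought on both strands (GAAANNGAAA on the other) with overlapping matches counted, were in the promoters of 22 of these 35, 62.9%, against 3.57% of all 35116 promoters of the same length. The gamma-activated letters TTCNNNGAA, which read the same on both strands, were in 8 of the 35, 22.9%, against 7.66% of all promoters. Stretches of 120 bases upstream of the start are shown 5′ to 3′ on the strand of the gene, with matches to TTTCNNTTTC in capitals. The first 6 belong to the tested members of smallest p, among those with a match before the start. The last 3, with the same condition, belong to members whose difference in pool 18 lay furthest below that in pools 17 and 28.

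IFIT3 (chr10:89327820-89327939, plus strand): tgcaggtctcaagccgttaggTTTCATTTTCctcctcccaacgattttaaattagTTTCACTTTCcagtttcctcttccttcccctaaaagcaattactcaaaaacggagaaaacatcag
ISG15 (chr1:1013335-1013454, plus strand): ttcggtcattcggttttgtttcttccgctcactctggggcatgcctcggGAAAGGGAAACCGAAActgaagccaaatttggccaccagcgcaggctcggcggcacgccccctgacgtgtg
IFI44 (chr1:78649669-78649788, plus strand): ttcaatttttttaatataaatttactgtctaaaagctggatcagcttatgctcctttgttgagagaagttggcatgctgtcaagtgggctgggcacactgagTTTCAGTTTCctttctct
SAMD9 (chr7:93118051-93118170, minus strand): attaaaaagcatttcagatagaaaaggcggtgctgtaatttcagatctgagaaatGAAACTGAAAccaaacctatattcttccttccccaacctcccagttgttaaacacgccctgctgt
IFIT1 (chr10:89392465-89392584, plus strand): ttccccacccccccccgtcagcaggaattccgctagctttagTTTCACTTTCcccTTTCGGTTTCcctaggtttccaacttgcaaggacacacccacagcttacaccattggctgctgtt
ISG20 (chr15:88638892-88639011, plus strand): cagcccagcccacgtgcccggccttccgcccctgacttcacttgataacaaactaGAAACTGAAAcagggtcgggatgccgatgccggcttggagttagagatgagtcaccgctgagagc
IFI44L (chr1:78620320-78620439, plus strand): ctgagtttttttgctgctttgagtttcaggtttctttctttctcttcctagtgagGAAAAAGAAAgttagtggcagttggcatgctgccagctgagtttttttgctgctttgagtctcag
IFI27 (chr14:94110586-94110705, plus strand): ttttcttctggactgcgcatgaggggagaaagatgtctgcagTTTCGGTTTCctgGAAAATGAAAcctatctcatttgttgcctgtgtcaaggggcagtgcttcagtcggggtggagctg
IFI6 (chr1:27672221-27672340, minus strand): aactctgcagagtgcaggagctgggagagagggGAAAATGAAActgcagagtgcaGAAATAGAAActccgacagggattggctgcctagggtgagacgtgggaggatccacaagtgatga

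IFIT3, IFIT1, ISG15, IFI27 and IFI6 each hold 2 matches in these stretches, and those of ISG15 overlap. A match describes the letters only. IFI35, IRF9, XAF1, SAMD9L and SP100, described among the members of smallest p, had no match to TTTCNNTTTC in the window searched, and the only match of MX1 did not lie wholly before the start. Among tested members with a promoter, the median difference between resistant and control libraries was 0.36 on the log2 scale for the 21 with a match and 0.50 for the 11 without.

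The libraries were alike in the number of genes at 1 FPKM or more, 10936 to 11331. FPKM counts the fragments of a transcript relative to its length and to the depth of the library. Relative depth, read from the steps between low values, ran from 1 in control 17 to 1.31 in resistant 28. Resistant 18 stood apart: limma's array weights gave it 0.162 and the other libraries 1.03 to 1.93, and its summed FPKM of 32 genes of S phase was 2078, against 816 to 1161 in the others. A list of 10 genes taken as a check of RNA quality summed to 114 FPKM there, against 192 to 255 elsewhere. It holds the nuclear RNAs MALAT1 and NEAT1 and genes that respond to stress and handling, such as FOS and JUN. The B cell markers MS4A1, CD79A and PAX5 were present in all libraries, MS4A1 at 92.4, 164 and 105 (FPKM) in control 17, 18 and 28 and 128, 196 and 98.6 in resistant 17, 18 and 28. Values by library are given in this order throughout. The 7 T cell genes summed to 0.786 to 3.18 FPKM in 5 libraries and to 12.1 in resistant 18, where TRAT1 had 11.7, and CD3D was at 0 in 5 libraries and 0.123 in the other. The 5 plasmacytoid dendritic cell genes summed to 15.2 to 18.4 FPKM, of which SPIB, a factor that B cells also express, made up 12 to 17.7. LILRA4 had 0.359 to 3.25, CLEC4C was above 0 in 2 controls at up to 0.283, and IL3RA and GZMB were at 0 throughout. CD14 of monocytes was at 0 in all controls. Summed FPKM of the 7 monocyte and macrophage genes was 3.23 to 11.0 in 5 libraries and 40.1 in resistant 17, where S100A9 had 34.1. The part of these differences in the results was not tested. In bulk RNA, fewer cells with a high level and less RNA per cell cannot be told apart.

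Most members had higher values in the resistant libraries, and none passed the test over all genes. Of the 44, 41 reached an FPKM of 1 in at least 3 libraries and were tested, 39 of them with at least 1 FPKM in all 3 controls. The other two tested, GBP2 and LGALS3BP, reached 1 FPKM in only 1 control and so passed the filter through the resistant libraries. In limma, 0 of 41 passed an adjusted p of 0.05, beside 0.0354% of all 11307 genes tested. At an unadjusted p under 0.05, 12 members were higher and 0 lower, beside 5.99% of all genes higher and 7.14% lower. The 12 were IFI35, IFIT3, IRF9, MX1, TRIM22, XAF1, SAMD9L, SP100, ISG15, OASL, USP18 and IFI44. The difference was positive for 37 of 41, GBP2 and LGALS3BP among them, beside 51.6% of all genes. The median difference of the tested members was 0.46 in log2(FPKM + 1), against 0.013 over all genes tested. All 3 resistant libraries lay above all 3 controls for 18 members and below them for 0, beside 10.1% and 11.1% of all genes. The difference had the same positive sign in every pool for 20 members, LGALS3BP among them, beside 18.9% of all genes. The same negative sign was seen for 0, beside 18.7%. These counts describe genes known to be regulated together, which are not independent of each other.

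The counts depended on some single libraries and on the pools. With both libraries of a pool left out, the count of members higher at an unadjusted p under 0.05 was 23 without pool 18, beside 8.91% of all genes. It was 2 without pool 17 and 2 without pool 28, beside 3.96% and 1.81% of all genes. With 1 library left out, it was 19 without resistant 18 (10.5% of all genes), 7 without resistant 28 (5.34%), 5 without control 17 (5.78%) and 5 without control 28 (2.57%). It stayed at 12 without control 18 and at 12 without resistant 17. In these fits 981 and 1238 of all 11307 genes had an unadjusted limma p under 0.05 in either direction. The median difference was 0.29 without pool 17, 0.29 without pool 28 and 0.51 without pool 18. With array weights, which count resistant 18 least, 2 members passed over all genes, IRF9 (limma adjusted p = 0.0342) and IFI35 (0.0352), beside 1.11% of all genes higher and 1.56% lower. Without pool 18, 1 member passed, IFI44L (log2 difference 1.73, limma adjusted p = 0.0497), beside 0.124% of all genes in that direction. IFI44L is the tested member whose pool 18 difference lay furthest below the other pools. Pool 18 was singled out with these data known, so this pass is no separate evidence. Over all 19 alternatives the adjusted p ran from 0.0342 to 0.923 for IRF9, from 0.0352 to 0.923 for IFI35 and from 0.0497 to 0.995 for IFI44L.

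**Figure D1:**
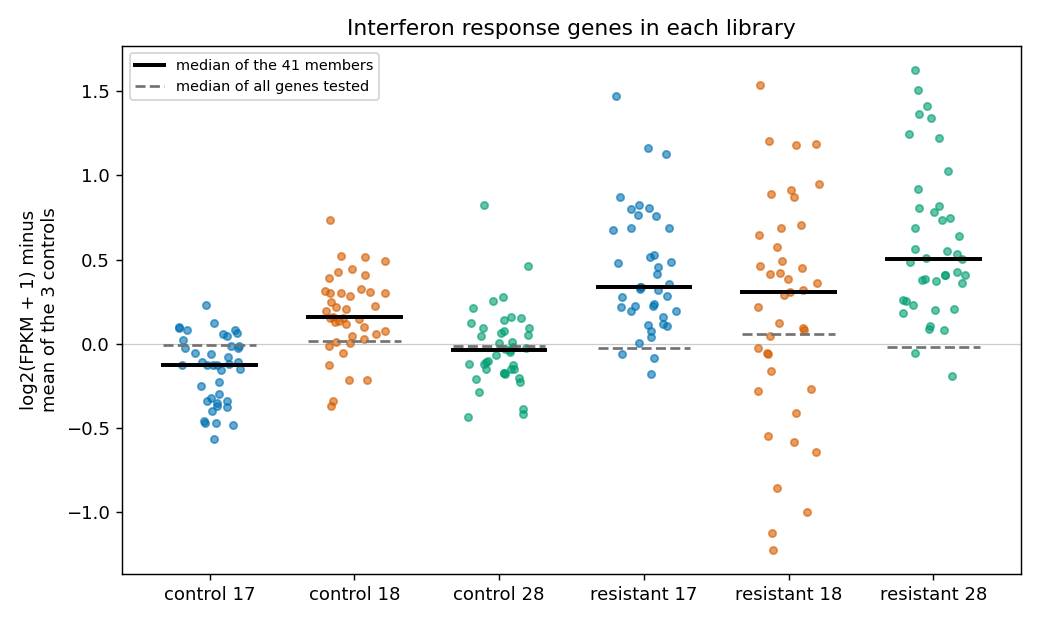
Level of each of the 41 tested members in each library, as log2(FPKM + 1) minus the mean of the 3 controls (points), with the median of the members (black line) and of all genes tested (dashed line). The member medians are -0.12, 0.16 and -0.036 in controls 17, 18 and 28 and 0.34, 0.31 and 0.50 in resistant 17, 18 and 28, and the points spread furthest in resistant 18.

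The transcription factors of the pathway differed in unlike ways. IRF9, the DNA-binding partner of STAT2, had an FPKM of 30.3, 33.2 and 28.4 in controls 17, 18 and 28 and 54.8, 41 and 58.7 in resistant 17, 18 and 28. Every resistant library was above every control, resistant 18 by the least. The mean FPKM was 30.6 ± 2.42 against 51.5 ± 9.27 (SD, n = 3 each), 1.68-fold higher in resistant libraries. The difference was 0.72 on the log2 scale (SE 0.19, limma adjusted p = 0.210). STAT2 had 19.1, 17.3 and 17.7 in the controls and 15.8, 25.3 and 19.2 in the resistant libraries, and only resistant 18 was clearly above the range of the controls. Between groups it differed by 0.12 on the log2 scale (SE 0.20, limma adjusted p = 0.833), which turned to -0.049 without resistant 18. IRF1, the factor most tied to interferon gamma, had 17.6, 21.2 and 18.5 in the controls and 22.3, 22.3 and 21.8 in the resistant libraries. The resistant libraries lay within 1 FPKM of each other and just above the highest control, with a log2 difference of 0.21 (SE 0.15, limma adjusted p = 0.578).

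IRF7, the factor that amplifies type I interferon production, split by pool. It had 34.6, 44.8 and 31.5 in the controls and 64.3, 17.8 and 62.0 in the resistant libraries (FPKM). Resistant 17 and 28 were above all controls and resistant 18 was below all of them. The log2 difference was 0.88, -1.28 and 0.95 in pools 17, 18 and 28, and 0.18 over the pools (SE 0.47, limma adjusted p = 0.904).

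The 3 sensors of viral RNA had a median difference of 0.049. DDX58, which encodes the sensor RIG-I, had 2.63, 2.97 and 3.32 in the controls and 3.64, 6.65 and 3.72 in the resistant libraries (FPKM). All resistant libraries were above the controls, resistant 18 the most, with a log2 difference of 0.47 (SE 0.23, limma adjusted p = 0.428). IFIH1, the gene of the sensor MDA5, had 33.6, 27.6 and 36.1 in the controls and 32.4, 26.6 and 43.1 in the resistant libraries. The groups overlapped, with a log2 difference of 0.049 that turned to -0.035 under quantile normalization. The kinase gene EIF2AK2, whose product PKR halts translation on double-stranded RNA, differed by -0.045, with 0.51, -0.47 and -0.17 in pools 17, 18 and 28.

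The OAS enzymes make a short messenger, oligoadenylate, that activates RNase L against viral RNA. OASL, a family member without that enzyme activity, had 9.65, 6.04 and 9.01 in the controls and 13.6, 10.3 and 27.0 in the resistant libraries (FPKM). Resistant 28 was far above the rest, and the lowest resistant library, 18, was only just above the highest control. The mean was 8.23 ± 1.93 against 17.0 ± 8.88 (SD, n = 3 each), with a log2 difference of 0.87 (SE 0.35, limma adjusted p = 0.359). OAS1 had 21.4, 41.2 and 26.2 in the controls and 46.0, 38.5 and 37.2 in the resistant libraries, where control 18 was above 2 of the resistant libraries. Its difference was 0.49, that of OAS2 0.38 and that of OAS3 -0.075, and in pool 18 all 3 were below 0 (-0.095, -0.092 and -0.56).

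The IFIT genes encode proteins that bind foreign RNA ends or cap structures. All 4 had every resistant library above every control, beside 10.1% of all genes. IFIT3 had 98.4, 109.6 and 76.8 in the controls and 165, 215 and 167 in the resistant libraries (FPKM). The mean was 95.0 ± 16.7 against 182 ± 28.1 (SD, n = 3 each), 1.92-fold higher in resistant libraries, and the log2 difference was 0.94 (SE 0.21, limma adjusted p = 0.183). In pools 17, 18 and 28 it was 0.74, 0.96 and 1.11, so pool 18 lay between the others. IFIT2 had 19.7, 17.9 and 16.7 in the controls and 26.2, 19.8 and 26.2 in the resistant libraries, and IFIT1, at a low level, had 1.47, 1.72 and 1.55 in the controls and 1.78, 3.78 and 2.35 in the resistant libraries. The log2 difference was 0.38 for IFIT2, 0.46 for IFIT1 and 0.30 for IFIT5 (limma adjusted p = 0.401, 0.430 and 0.467). The 4 genes are neighbours on chromosome 10, and the 40 tested genes around IFIT3 had medians of -0.095, 0.20 and -0.21 in pools 17, 18 and 28.

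Among the 10 tested antiviral effectors, MX1, TRIM22, SAMD9L and SAMD9 had every resistant library above every control, beside 10.1% of all genes. MX1, a dynamin-like GTPase that blocks viral nucleocapsids, had 213, 225 and 193 in the controls and 303, 329 and 350.1 in the resistant libraries (FPKM). The mean was 210.1 ± 16.2 against 327 ± 23.8 (SD, n = 3 each), a log2 difference of 0.64 (SE 0.18, limma adjusted p = 0.224). Its paralogue MX2 differed by 0.27, with -0.19 in pool 18. TRIM22, a ubiquitin ligase with antiviral activity, had 103, 109 and 88.8 in the controls and 140.2, 184 and 142 in the resistant libraries. Resistant 18 was the highest, and the log2 difference was 0.62 (SE 0.19, limma adjusted p = 0.256).

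SAMD9 and SAMD9L are neighbouring genes on chromosome 7 whose products restrict translation and cell growth. SAMD9 had 4.92, 5.55 and 5.86 in the controls and 6.18, 13.6 and 7.54 in the resistant libraries (FPKM), with resistant 18 far above every other library. Its differences were 0.28, 1.15 and 0.32 in pools 17, 18 and 28. SAMD9L had 3.14, 5.22 and 4.59 in the controls and 5.97, 8.89 and 6.74 in the resistant libraries. It differed by 0.63 on the log2 scale (SE 0.22, limma adjusted p = 0.30). Resistant 18 was again the highest library. The exonuclease gene ISG20 differed by 0.54, and by -0.12 in pool 18.

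BST2 encodes tetherin, which holds budding viruses at the cell surface. It had 145, 198 and 108 in the controls and 235, 109 and 255 in the resistant libraries (FPKM). Resistant 17 and 28 were above all controls, and resistant 18 was near the lowest control. Its difference was 0.70, -0.86 and 1.24 in pools 17, 18 and 28, and 0.36 over the pools (limma adjusted p = 0.727). The 40 tested genes around BST2 had a median of -0.34 in pool 18. The IFITM proteins stop viruses from fusing with membranes. IFITM3 had 1.14, 1.93 and 1.14 in the controls and 2.03, 0.521 and 2.05 in the resistant libraries, lowest in resistant 18, and its difference over the pools, 0.024, turned to -0.041 with a pseudocount of 0.1. IFITM1, the member of the family with the highest FPKM, had 254, 444 and 319 in the controls and 386, 221 and 289 in the resistant libraries, again lowest in resistant 18. IFITM1 and IFITM2 differed by -0.18 and -0.19 over the pools. IFITM2 and IFITM3 are near-identical copies, so the values of each are uncertain where fragments could be assigned to either. IRF7 lies near the IFITM genes on chromosome 11, and the 36 tested genes around IRF7 had medians of 0.13, -0.22 and 0.24 in pools 17, 18 and 28.

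The 2 remaining effectors, RSAD2 and CMPK2, were not tested. These neighbouring genes on chromosome 2 are among the strongest targets of type I interferon in many cells. RSAD2 had 0.0198, 0.0384 and 0.0476 in the controls and 0.0378, 0 and 0.136 in the resistant libraries (FPKM). CMPK2 was listed at 0 in 5 libraries and had 0.135 in resistant 28. Neither was near the minimum of 1 FPKM in any library, while the lowest value of MX1 was 193.

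ISG15 is a ubiquitin-like protein that is attached to other proteins by ligases such as HERC5 and removed by the protease USP18, which also dampens receptor signalling. ISG15 had 215, 308 and 279 in the controls and 363, 394 and 752 in the resistant libraries (FPKM). Resistant 28 was far above the other libraries, and the spread among resistant libraries was wide. The mean was 267 ± 47.8 against 503 ± 216 (SD, n = 3 each), and the log2 difference was 0.85 (SE 0.32, limma adjusted p = 0.336). The 23 tested genes around ISG15 had medians of 0.037, -0.40 and 0.32 in pools 17, 18 and 28. USP18 had 47.8, 41.2 and 46.7 in the controls and 51.8, 63.9 and 73.3 in the resistant libraries, resistant 17 only just above the controls, and differed by 0.46 on the log2 scale (SE 0.18, limma adjusted p = 0.359). HERC5 differed by 0.18.

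PARP9 and DTX3L encode partners in a ubiquitin ligase complex, and PARP14 is a related ADP-ribosyltransferase. The 3 genes lie together on chromosome 3. PARP9 had 16.6, 27.7 and 19.9 in the controls and 25.7, 49.5 and 25.3 in the resistant libraries (FPKM), highest in resistant 18, and control 18 was above the other resistant libraries. The log2 difference of PARP9 was 0.58 (SE 0.31, limma adjusted p = 0.467). DTX3L differed by 0.083. PARP14 had 49.5, 53.3 and 51.8 in the controls and 54.2, 54.5 and 54.7 in the resistant libraries. Its 3 resistant libraries were close together and above the controls, but by a log2 difference of only 0.081, which turned to -0.023 under quantile normalization.

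The guanylate-binding proteins are GTPases that attack the vacuoles of intracellular microbes and respond strongly to interferon gamma. GBP1 reached 1 FPKM only in resistant 18 and was not tested. It had 0, 0.0670 and 0.129 in the controls and 0.790, 2.70 and 0.790 in the resistant libraries (FPKM), so each resistant library was above every control at a low level. GBP2 had 0.411, 1.51 and 0.614 in the controls and 2.27, 1.33 and 1.34 in the resistant libraries. Control 18 was above 2 of the resistant libraries, and the log2 difference was 0.55 (SE 0.27, limma adjusted p = 0.431).

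IFI35, whose product forms a complex with NMI, had the smallest p among the members. Its FPKM was 21.9, 25.7 and 15.1 in the controls and 47.0, 61.1 and 48.9 in the resistant libraries. Every resistant library was well above every control, with resistant 18 the highest. The mean was 20.9 ± 5.38 in controls against 52.3 ± 7.64 in resistant libraries (SD, n = 3 each), 2.50-fold higher. The log2 difference was 1.31 (SE 0.23, limma adjusted p = 0.158), with 1.07, 1.22 and 1.63 in pools 17, 18 and 28. IFI35 lies on chromosome 17, and the 40 tested genes around it, from ATP6V0A1 to SLC25A39, had medians of 0.022, 0.33 and 0.047, 29 of the 40 being positive in pool 18.

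XAF1, which promotes apoptosis by binding the caspase inhibitor XIAP, had 1.52, 3.67 and 1.94 in the controls and 4.52, 4.30 and 4.60 in the resistant libraries (FPKM). The resistant libraries were close together, and control 18 was nearly as high. XAF1 differed by 0.75 on the log2 scale (SE 0.24, limma adjusted p = 0.283). The 40 tested neighbours of XAF1, also on chromosome 17, had a median of 0.33 in pool 18. SP100, a component of nuclear bodies that silence viral genomes, had 57.5, 65.3 and 53.5 in the controls and 74.2, 95.0 and 82.4 in the resistant libraries, all resistant libraries above all controls. SP100 differed by 0.50 on the log2 scale (SE 0.17, limma adjusted p = 0.30). The related gene SP110 differed by 0.27, and the secreted galectin-3-binding protein gene LGALS3BP by 0.50.

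IFI6, IFI27, IFI44 and IFI44L encode small or poorly understood proteins often used as markers of an interferon response. All 4 had a difference below 0 in pool 18 and above 0 in both other pools, beside 13.9% of all genes. In IFI44 the pool 18 difference was only -0.013. IFI6, a mitochondrial and membrane protein, had 26.2, 36.2 and 24.8 in the controls and 63.7, 25.6 and 74.3 in the resistant libraries (FPKM). IFI44L had 2.85, 7.19 and 2.77 in the controls and 12.6, 1.72 and 10.7 in the resistant libraries, and IFI27 had 2.47, 5.36 and 5.12 in the controls and 4.58, 1.20 and 12.2 in the resistant libraries. In IFI6 and IFI44L resistant 17 and 28 were above all controls, in IFI27 only resistant 28 was, and resistant 18 was the lowest library for IFI44L and IFI27 and near the lowest control for IFI6. IFI44 had 18.2, 24.9 and 17.6 in the controls and 34.8, 24.7 and 27.2 in the resistant libraries, with resistant 18 just below control 18 and the other resistant libraries above all controls. The log2 difference over the pools was 0.77 for IFI6, 0.086 for IFI27, 0.49 for IFI44 and 0.62 for IFI44L (limma adjusted p = 0.453, 0.971, 0.376 and 0.715).

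**Figure D2:**
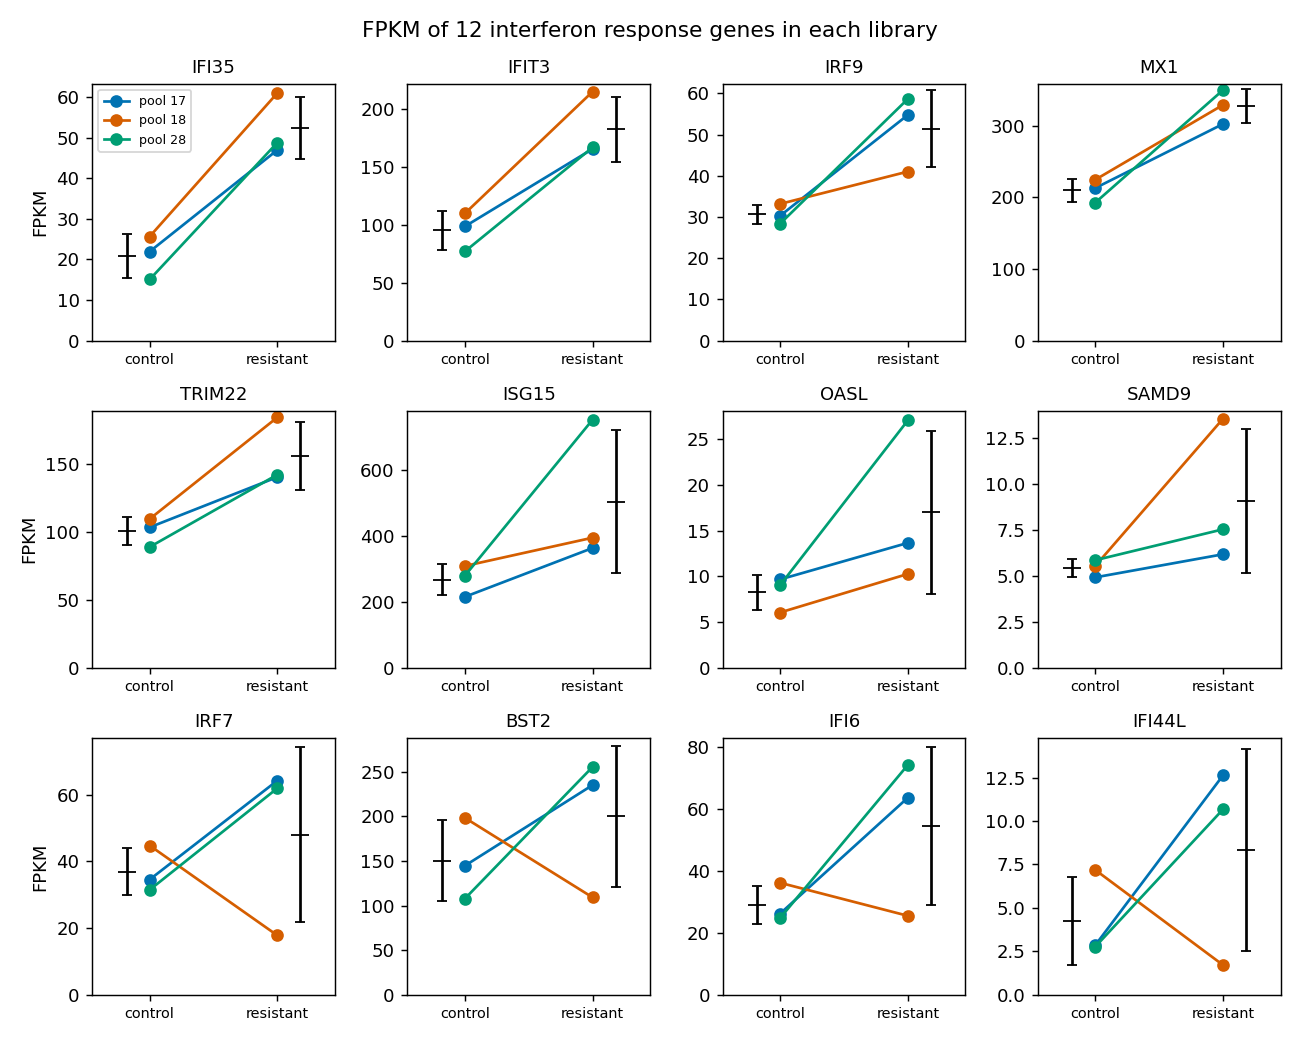
FPKM (linear axes from 0) of 12 members in each library, with lines joining the control and resistant library of a pool and bars for the mean and SD of 3 libraries. In the upper rows every resistant library is above every control, while IRF7, BST2, IFI6 and IFI44L in the bottom row are lower in resistant 18 than in control 18 and higher in the other pools.

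Over the whole set of members, differences between resistant and control were smaller in pool 18 than in pools 17 and 28. The tested members had median differences of 0.50, 0.062 and 0.58 in pools 17, 18 and 28, against -0.027, 0.049 and -0.0065 over all genes. The median in pool 18 turned negative under quantile normalization (-0.013), with libraries scaled to the same median (-0.032) and with GC and length trends removed (-0.036). Positive differences were seen for 39, 22 and 37 of the 41 members in pools 17, 18 and 28, beside 47.2%, 53.4% and 49.3% of all genes. Differences over 1 on the log2 scale were seen for 6, 2 and 10 members in these pools, beside 2.45%, 5.41% and 4.06% of all genes. Differences under -1 were seen for 0, 4 and 0 members, beside 1.72%, 7.24% and 4.02%. The pool 18 difference was below those of both other pools for 25 members and above both for 6, beside 35.4% and 44.9% of all genes. This was not seen in the medians of the 91 other tested genes of the pathway, described below. Their medians were 0.13, 0.20 and 0.26 in pools 17, 18 and 28. Pool 18 was below both others for 30 of these genes and above both for 36. Their lists differed. Among 12 targets of interferon gamma, pool 18 was below both others for 6 and above both for 1. Among 6 kinases and STAT factors, it was below both for 0 and above both for 6. Single genes also differed both ways. SOCS1 had 0.52, -1.74 and 0.58 in pools 17, 18 and 28, and AIM2 had 0.40, 2.25 and 1.14. The median over members of the pool 18 difference minus the mean of the others was -0.46, against 0.079 over all genes. With 1 library for each pool and group there are no replicates of this contrast, and pool 18 was singled out with these data known, so it was not tested.

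Both libraries of pool 18 took part in this. Control 18 was above control 17 for 36 of 41 members, with a median of 0.24 against 0.028 over all genes. Control 28 was above control 18 for 10, with a median of -0.19 against -0.019. Resistant 18 was above resistant 17 for 17, with a median of -0.23 against 0.091. Resistant 28 was above resistant 18 for 27, with a median of 0.20 against -0.079. Relative to the mean of the controls, the member medians of resistant 17 and 18 were close, 0.34 and 0.31. Resistant 17 and 28 both lay above all 3 controls for 28 members, beside 20.1% of all genes.

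Resistant 18 was not low for all members. It was above all 3 controls for 21 and below all 3 for 8, beside 42.0% and 33.2% of all genes. The members above included IFI35, IFIT3, TRIM22, MX1, SAMD9, SAMD9L, DDX58, IFIT1, PARP9, STAT2 and SP100. Those below were IRF7, IFITM1, IFITM2, IFITM3, IFI27, IFI44L, OAS3 and IFIH1. The pool 18 difference lay furthest below the mean of the other pools in IFI44L, where it was -1.59 against 1.82 in pool 17 and 1.63 in pool 28. Next came IFI27 (0.68, -1.53 and 1.11 in pools 17, 18 and 28), IRF7, IFI6 (1.25, -0.49 and 1.54), BST2 and IFITM3 (0.50, -0.95 and 0.51). Among tested members SAMD9 and DDX58 lay furthest the other way, DDX58 at 0.35, 0.94 and 0.13. The difference was below 0 in pool 18 and above 0 in both others for 15 members, GBP2 among them, beside 13.9% of all genes. The reverse held for 0, beside 17.6%. The genes of S phase had median differences of -0.10, 0.89 and -0.28 in pools 17, 18 and 28, and their part in these results was not tested. Among tested members with a RefSeq promoter, the median of pool 18 minus the others was -0.64 for those with TTTCNNTTTC and -0.13 for those without.

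**Figure D3:**
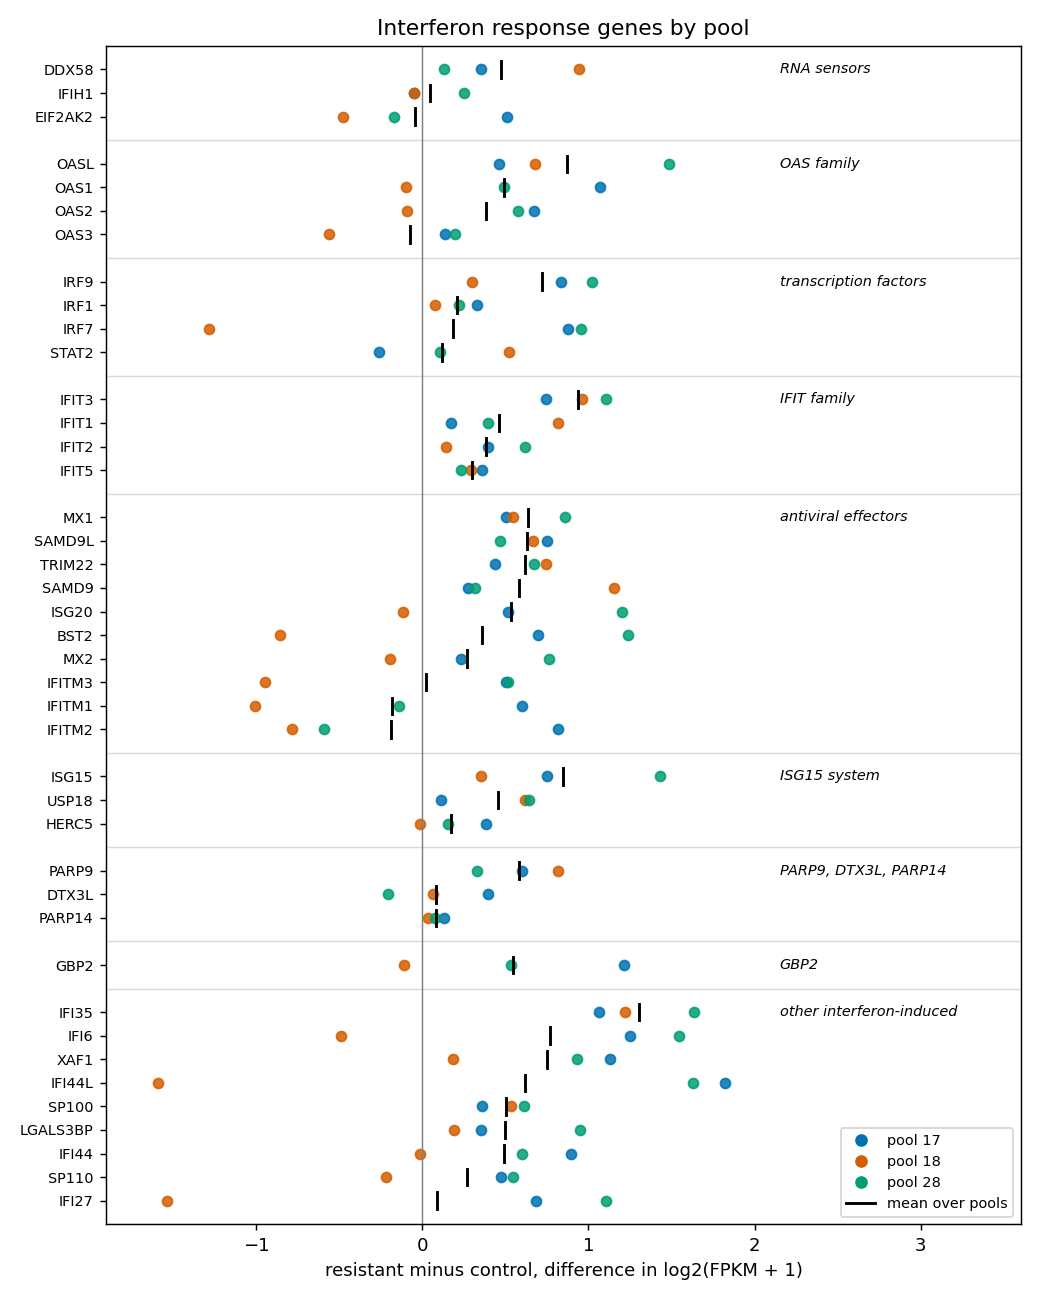
Difference in log2(FPKM + 1) between the resistant and the control library of each pool (points) and the mean over pools (bars) for the 41 tested members, by role. Pool 18 is left of the other pools in IFI44L, IFI27, IFI6, IRF7 and BST2 and to their right in SAMD9 and DDX58.

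Other genes of the pathway, from lists of ligands, receptors, signalling proteins and targets that are not members, were examined in the same fit. In limma, 0 of the 91 tested passed over all genes, and at an unadjusted p under 0.05 there were 16 higher and 2 lower, beside 5.99% and 7.14% of all genes. Their median difference was 0.19. No interferon gene was tested. Of 18 ligand genes in the files 11 were listed at 0 in every library and none reached 1 FPKM in any. IFNB1 had 0.513, 0.0996 and 0.493 in the controls and 0.391, 0.564 and 0.783 in the resistant libraries (FPKM) and IFNG had 0.260, 0.378 and 0.572 in the controls and 0.496, 0.834 and 0.545 in the resistant libraries, and the groups overlapped for both.

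The 5 tested receptor genes had a median difference of -0.014. IFNAR2, a chain of the type I receptor, had 8.30, 19.2 and 27.7 in the controls and 9.27, 12.1 and 10.1 in the resistant libraries (FPKM). It ranged widely among controls, with a log2 difference of -0.62 (limma adjusted p = 0.535). IFNGR2 of the interferon gamma receptor differed by -0.12. The 6 tested genes of kinases and STAT factors had a median of 0.17, and 5 were positive, beside 51.6% of all genes. Their medians were -0.19, 0.64 and 0.049 in pools 17, 18 and 28. Pool 18 was above both others for all 6, beside 44.9% of all genes. STAT3, the only negative one, differed by -0.36 (limma adjusted p = 0.444). Of the 9 tested inhibitors, SOCS3, which blocks JAK kinases, had 6.60, 5.58 and 6.01 in the controls and 7.35, 9.73 and 10.9 in the resistant libraries, all resistant libraries above all controls (log2 difference 0.53, limma adjusted p = 0.294). PTPN6, a phosphatase gene, differed by 0.38.

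The genes that sense nucleic acids and induce interferon had a median of 0.31 over 21 tested, with 5 higher and 1 lower at an unadjusted p under 0.05, beside the same 5.99% and 7.14% of all genes. IKBKE, a kinase that activates IRF3 and IRF7, had 13.4, 11.1 and 9.07 in the controls and 19.4, 20.1 and 18.9 in the resistant libraries (FPKM). DHX58, the regulator LGP2 of RNA sensing, had 9.17, 10.3 and 10.2 in the controls and 14.3, 18.8 and 15.4 in the resistant libraries. In both, every resistant library was above every control. Their log2 differences were 0.76 (SE 0.18) and 0.65 (SE 0.16), with limma adjusted p = 0.192 and 0.197. Genes that clear nucleic acids had a median of 0.082 over 8, with RNASEH2C at 0.47 and SAMHD1 at 0.26.

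Other interferon-induced genes had a median of 0.30 over 30 tested, 24 of them positive, beside 51.6% of all genes. Their medians were 0.23, 0.26 and 0.42 in pools 17, 18 and 28. The pool 18 difference was below both others for 11 of the 30 and above both for 9, beside 35.4% and 44.9% of all genes. At an unadjusted p under 0.05, 9 were higher and 0 lower, beside 5.99% and 7.14% of all genes. LGALS9, which encodes galectin-9, had 2.98, 3.96 and 4.58 in the controls and 12.2, 16.1 and 8.32 in the resistant libraries (FPKM), 3.18-fold higher on average (log2 difference 1.42, SE 0.26, limma adjusted p = 0.158). TRIM21, an intracellular antibody receptor, had 13.4, 12.6 and 11.3 in the controls and 18.4, 27.4 and 18.7 in the resistant libraries (log2 difference 0.73, limma adjusted p = 0.220). In both genes every resistant library was above every control, and resistant 18 was the highest. The genes of antigen processing TAP1, PSMB8 and PSMB9 differed by 0.26, 0.14 and 0.28. Targets of interferon gamma had a median of 0.19 over 12, with GBP4 at 0.59 (SE 0.15, limma adjusted p = 0.197) and NLRC5, the activator of MHC class I genes, at -0.59 (SE 0.23, limma adjusted p = 0.357).

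**Figure D4:**
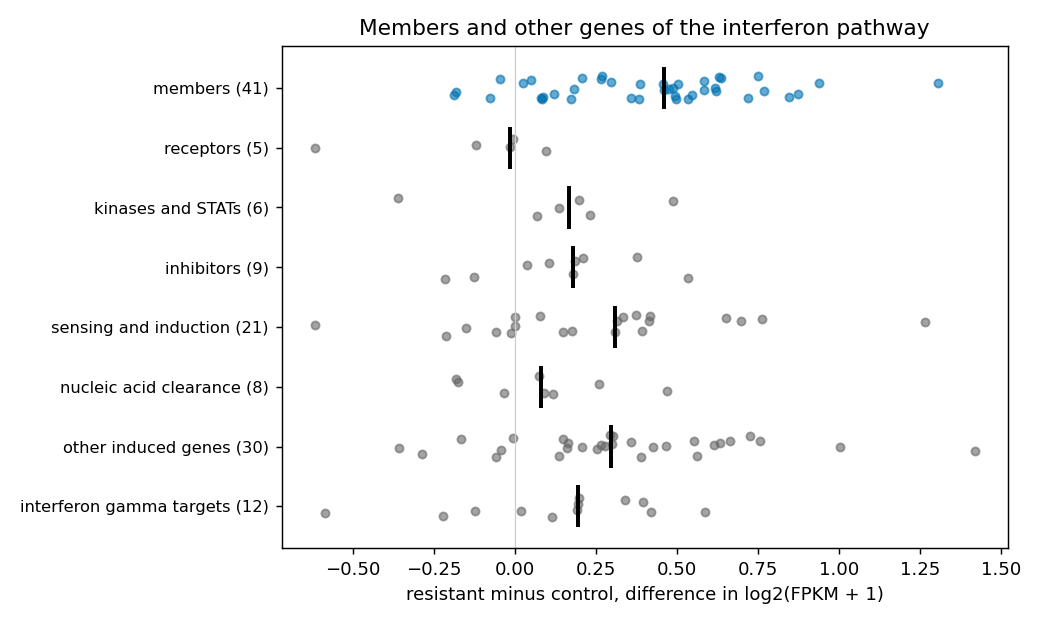
Difference in log2(FPKM + 1) between resistant and control libraries for each tested gene (points) of the members and of 7 other lists of the pathway, with the median (bar) and the number tested in brackets. The medians are 0.46 for members, 0.31 for sensing and induction, 0.30 for other induced genes and -0.014 for receptors.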

How the data were processed

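Per the labels, total RNA was extracted from 3 control and 3 fludarabine-resistant pools of HG3 cells with an RNeasy Plus Mini kit. Each deposited file gives FPKM for 23619 gene symbols, per the file headers, with decimal commas. The build was hg19 and the tools included DESeq2, HTSeq 0.6.1, Cufflinks 2.2.1 and TopHat2 2.0.4, per the submitters' processing notes. Roles of the tools, annotation, strand and RNA selection were not given in the sources used here. FPKM hold no counts, so no count model was fitted, and absolute depth is unknown.

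Genes with at least 1 FPKM in at least 3 of 6 libraries were tested with limma 3.58.1, in R 4.3.3, after conversion to log2(FPKM + 1) (trend, two-sided, Benjamini-Hochberg over all 11307 genes, threshold 0.05). The pseudocount understates changes of low genes. The method was tested on simulated data with independent genes, a common spread and no outlying library. That setting differs from these libraries, where resistant 18 stood apart. No source states that the pools were separate cultures from the start, and p-values then reflect only how far these libraries spread, which may be technical. The series' design mentions paired pools. Deviations of same-numbered libraries correlated at 0.148, 0.0892 and -0.0243 in pools 17, 18 and 28. No block was used in the reported fit. Differences per pool are resistant minus control of the same number.

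The members and lists were chosen with earlier results of these data known. Members given in every library were the 12 of smallest p, the transcription factors, the 2 of smallest p per role, and those most different in pool 18. Of each other pathway list the 2 genes of smallest p were named, and some items are not reported here. RSAD2, CMPK2, GBP1, IFIT1 and IFITM1, and IFNB1, IFNG, TAP1, PSMB8, PSMB9, SOCS1 and AIM2, were added after their values were seen. IFITM proteins were not analysed here. Alternatives were other pseudocounts, filters and scalings, a block for the pool, array weights, GC and length trends removed (GENCODE v29, 9919 genes, 87.7%), and libraries or pools left out with the same genes tested.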

Additional observations from a re-analysis of the deposited data

Results flagged for a closer look

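In 15 of the 41 tested members the difference between resistant and control was below 0 in pool 18 and above 0 in both other pools, beside 13.9% of all genes tested, and in 0 members it was the other way round, beside 17.6%. Each pool has 1 library per group, so these differences between pools were not tested. The values in pool 18 were furthest below 0 for IFI44L (-1.59), IFI27 (-1.53), IRF7 (-1.28), IFITM3 (-0.95), BST2 (-0.86), OAS3 (-0.56) and IFI6 (-0.49). They were nearer 0 for SP110 (-0.22), MX2 (-0.19), ISG20 (-0.12), GBP2 (-0.11), OAS1 (-0.095), OAS2 (-0.092), IFI44 (-0.013) and HERC5 (-0.013). GBP2 reached 1 FPKM in only 1 control and passed the filter through the resistant libraries.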

How the results depend on the processing

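The count of members passing limma's adjusted threshold was 0 in the reported fit and 0 with the replicate block, and the block changed no call among the members. It was 2 with array weights, beside 1.11% of all genes higher and 1.56% lower. With libraries or pools left out it was 0 to 1, the 1 without pool 18, beside 0.124% of all genes higher. In the reported fit 12 members were higher and 0 lower at an unadjusted limma p under 0.05, beside 5.99% and 7.14% of all genes. The median difference of tested members, 0.46, stayed between 0.33 and 0.50 under other pseudocounts, filters, scalings, weights and corrections, and between 0.29 and 0.51 with libraries or pools left out. The median of pool 18 minus the others, -0.46, was -0.59 with a pseudocount of 0.1, -0.31 with a pseudocount of 5, -0.33 without a filter and -0.53 with libraries scaled to the same median. Of the 28 members given in every library by rule, 21 kept their sign under all 19 alternatives. Of the other 7, IFIH1 was -0.035 and PARP14 -0.023 under quantile normalization, STAT2 was -0.029 with array weights and IFITM3 -0.041 with a pseudocount of 0.1. With libraries or pools left out, IFIH1 ran from -0.13 to 0.21, STAT2 from -0.077 to 0.31, IRF7 from -0.20 to 0.92, BST2 from -0.079 to 0.97, IFITM3 from -0.22 to 0.51 and IFI27 from -0.55 to 0.90. The cause was not tested. FPKM carry no counts, so no counting error is known for low genes such as GBP1 and IFITM3.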
